A study of Homo sapiens with 6 samples.

Results

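Transcripts of death receptors and of the caspase-8 complex were followed in hTERT RPE-1 cells, a line of human retinal pigment epithelium made immortal with telomerase. The set was defined by gene symbol, with earlier results of these libraries known. It named 10 genes, of which 9 had a row among the 13696 genes of the deposited table. These were the receptors FAS, TNFRSF10B, TNFRSF10D and TNFRSF1A, the adaptors FADD and TRADD, the kinase RIPK1, the protease CASP8 and its relative CFLAR. TNFRSF10A had no row and was not analysed here. The study compared 3 libraries of untreated cells with 3 libraries of cells exposed to 25 nM camptothecin for 1 h and harvested 24 h later, called the pre-dose. Camptothecin is an inhibitor that traps topoisomerase 1 on DNA. All libraries came from the same cell line and poly-A RNA was sequenced. The titles of all 6 samples carry the term Top1, which the labels do not explain, and no genetic change is stated. Whether replicates were separate cultures is not stated in the labels, so the p-values rest on a spread between samples that may be technical only.

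Death receptors are members of the TNF receptor family that carry a death domain in their cytoplasmic part. When ligand gathers FAS or TNFRSF10B at the membrane, the adaptor FADD joins them and recruits procaspase-8, which is activated by dimerisation and cleaves effector caspases or BID. CFLAR, the gene of c-FLIP, resembles caspase-8 but lacks protease activity and controls its activation. TNFRSF1A, a TNF receptor, first assembles TRADD and RIPK1 into a complex that signals to NF-kB, and a second complex with FADD and caspase-8 can form from it. FAS and TNFRSF10B are known p53 targets, and CUL3-based ubiquitin ligases are known to modify caspase-8.

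Of the 9 transcripts, TNFRSF10B and TNFRSF10D were the members past an adjusted threshold in any of the comparisons made. The ratio of the pre-dose to the untreated mean was 1.22 for TNFRSF10B and 1.18 for TNFRSF10D. In all 6 libraries, 0 of the 9 genes passed an adjusted p of 0.05 in limma-trend, as did 0% of the 13616 genes tested. In replicates 2 and 3 alone, TNFRSF10B and TNFRSF10D passed as higher, as did 2.89% of genes tested. The authors' deposited table called TNFRSF10B and 1.61% of its genes as higher. FADD and TRADD had lower means after the pre-dose, and TNFRSF1A had a fold of 0.999. The ranges of the groups overlapped for all 9 genes, against 6.55% of genes tested whose ranges did not overlap.

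The replicate 1 libraries stood apart from the others. They lay at -20.55 (untreated) and -17.96 (pre-dose) on the first principal component, which held 59.4% of the variance, and the other 4 lay between 6.94 and 16.38. The labels name no batch. Effective library totals were 26336942 to 31780392 reads, and 3 reads corresponded to 0.0944 to 0.114 CPM (counts scaled to the effective library total), a limit that covers counting error only. CDKN1A and MDM2, p53 targets used as reference genes, differed on the log2 scale by 0.42 and 0.20 in the replicate 1 pair, by 1.32 and 0.71 in the replicate 2 pair and by 1.02 and 0.59 in the replicate 3 pair. Of 13 markers of retinal pigment epithelium 5 had a row, and RPE65, RLBP1, TYR and PMEL were among those without one. BEST1, MITF, OTX2, KRT8 and KRT18 had a row. They summed to 1370 to 1510 CPM in untreated and 1360 to 1410 CPM in pre-dose libraries. KRT8 and KRT18 made up most of that sum, with MITF at 44.9 to 50.6, OTX2 at 15.8 to 18.4 and BEST1 at 4.14 to 5.4 CPM. Of blood markers 1 of 7 had a row (HBB, 13.7 to 19.0 CPM), of fibroblast markers 2 of 6, of neural markers 3 of 5 and of other epithelial markers 0 of 5. Among the neural markers TUBB3 had 271 to 400 CPM in untreated and 255 to 374 CPM in pre-dose libraries, and SYT1 and SNAP25 were lower. The summed fibroblast markers ran from 292 to 603 CPM in untreated and from 260 to 498 CPM in pre-dose libraries, and COL1A1, which makes up most of them, had 160, 409 and 428 CPM in untreated and 139, 321 and 258 CPM in pre-dose replicates 1, 2 and 3. It was thus lowest in the replicate 1 libraries and lower after the pre-dose in each pair. Their part in the results was not tested. In these bulk samples, fewer cells expressing a gene and less RNA per cell cannot be told apart.

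Short stretches of 3 start regions are shown for FAS, CASP8 and CFLAR, a receptor, the protease and its regulator. They are from RefSeq on GRCh38.p14, plus strand, and capitals mark the letters GGGCGG (a GC box) and, in CFLAR, an NF-kB site that overlaps it by 2 bases.
FAS (chr10:88990726-88990755): ctggagcctcagGGGCGGgcactggcacgg
CASP8 (chr2:201233355-201233384): actctccgcagtGGGCGGgaggagacgagg
CFLAR (chr2:201118609-201118638): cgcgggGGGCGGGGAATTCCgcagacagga
The FAS stretch lies 72 to 43 bases before the RefSeq start, that of CASP8 108 to 79 and that of CFLAR 107 to 78. The FAS and CFLAR stretches overlap exons of other transcripts in GENCODE release 29 and lie inside those genes, and the CASP8 stretch lies outside CASP8. Both strands of the 250 bases before the start were searched in the 6 members with an entry, which leaves out TNFRSF10B, TNFRSF10D and TRADD. A GC box was found in 5 of the 6, against 42.6% of 35116 promoters, an NF-kB site in 1 against 9.96%, an AP-1 site (TGANTCA) in 1 (FAS) against 6.57%, and a p53 half-site in 0 of these 6 against 5.57%. A match is a description of letters and not a bound site. Sites outside the 250 bases were not searched, so a count of 0 does not speak of the rest of a gene.

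TNFRSF10B encodes DR5, a receptor for TRAIL with a death domain, on chromosome 8 from 23020133 to 23069179 (GRCh38). Its level was 105, 120 and 119 CPM in untreated replicates 1, 2 and 3 and 110, 159 and 150 CPM in the pre-dose replicates. Pre-dose replicates 2 and 3 were above every untreated library, and pre-dose replicate 1 lay inside the untreated range. The means were 114 ± 8.40 CPM (SD, n = 3) and 140 ± 26.3 CPM (SD, n = 3). The difference in log2(CPM + 1) was 0.27 ± 0.14 (SE), with a 95% interval of -0.05 to 0.60 and an adjusted p of 1 in limma (unadjusted p = 0.0891). An exact two-sided permutation test gave p = 0.3, where 3 libraries against 3 can go no lower than 0.1. The difference was 0.07 in the replicate 1 pair, 0.41 in the replicate 2 pair and 0.33 in the replicate 3 pair. With 1 library left out it lay between 0.169 (without pre-dose replicate 2) and 0.435 (without pre-dose replicate 1).

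The 4 libraries of replicates 2 and 3 (2 per group) leave out the replicate 1 pair, which had the smallest TNFRSF10B difference (0.07). They were set apart with earlier results of these data known. Among them, the TNFRSF10B difference was 0.37, with an interval of 0.29 to 0.46 and an adjusted p of 7.13e-04 in limma-trend. The authors' deposited table gave 0.34 (0.20 to 0.48) with an adjusted p of 0.0344. Voom with library quality weights, which gave the replicate 1 libraries weights of 0.23 and 0.199 and the others weights of 1.26 or more, called TNFRSF10B with an adjusted p of 0.0498, and 0.485% of genes tested as higher. These comparisons share libraries and are not independent of each other. With the replicate number as a block over all 6 libraries, TNFRSF10B had an interval of 0.13 to 0.41 and an adjusted p of 0.261, and 0 genes were called.

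TNFRSF10D encodes a TRAIL receptor with a truncated death domain, which binds the ligand without passing on the death signal, and lies on chromosome 8 from 23135588 to 23164030. Its level was 51.1, 75.3 and 74.4 CPM in the untreated replicates and 53.6, 92.9 and 89.8 CPM in the pre-dose replicates. Both replicate 1 libraries were below all the others, with a mean offset of -0.65 on the log2 scale, the widest among the 9 genes. The means were 66.9 ± 13.7 CPM and 78.8 ± 21.9 CPM (SD, n = 3 each). The difference was 0.21 ± 0.24 (SE), with an interval of -0.34 to 0.77. It was 0.07, 0.30 and 0.27 in the 3 pairs. Leaving out 1 library moved it between 0.0307 (without untreated replicate 1) and 0.464 (without pre-dose replicate 1). It was 0.28 (0.20 to 0.37) in replicates 2 and 3 alone, where limma gave an adjusted p of 0.0026, and the authors' deposited table gave an adjusted p of 0.144. When limma blocked all 6 libraries by replicate, the TNFRSF10D interval was 0.09 to 0.33 and lay above 0 (unadjusted p = 0.00326). TNFRSF10D did not pass there (adjusted p = 0.307).

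The differences of these 2 TRAIL receptors were set against each other as a ratio. The log2 ratio of TNFRSF10B to TNFRSF10D changed by 0.00, 0.11 and 0.07 in the 3 pairs. An exact two-sided permutation test of that ratio, which ignores the replicate number, gave p = 0.5. The ratio of CPM per kb of merged exons was 1.40, 1.09 and 1.09 in untreated and 1.41, 1.18 and 1.15 in pre-dose libraries, so it was higher in both replicate 1 libraries. That offset is part of the spread in the permutation test.

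FAS, the receptor for FAS ligand, lies on chromosome 10 from 88990582 to 89015785. Its level was 21.7, 24.9 and 23.7 CPM in untreated and 24.9, 30.2 and 25.6 CPM in pre-dose replicates 1, 2 and 3. The pre-dose library was the higher one in each pair, by 0.19, 0.27 and 0.11 on the log2 scale, with 24.9 CPM shared by the highest untreated and the lowest pre-dose library. The means were 23.5 ± 1.60 and 26.9 ± 2.86 CPM (SD, n = 3 each), with a difference of 0.19 ± 0.09 (SE) and an interval of -0.04 to 0.41. It did not pass in limma over all 6 libraries (adjusted p = 1), in replicates 2 and 3 (adjusted p = 0.186) or in the authors' deposited table (adjusted p = 0.251). When limma blocked the 6 libraries by replicate, the FAS interval was 0.06 to 0.32 and lay above 0 (unadjusted p = 0.0101). FAS did not pass there either (adjusted p = 0.358), and the labels state no pairing. The log2 ratio of TNFRSF10B to FAS changed by -0.12, 0.14 and 0.23 in the 3 pairs (exact two-sided permutation p = 0.6). With 3 libraries against 3, that test did not tell the changes of these receptors apart, which does not make them equal.

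TNFRSF1A, the widely expressed TNF receptor, lies on chromosome 12 from 6328757 to 6342114. It had 203, 195 and 193 CPM in untreated and 205, 193 and 193 CPM in pre-dose replicates. The values of the groups covered the same range, and the pairs differed by 0.01, -0.01 and -0.01 on the log2 scale. The means were 197 ± 5.38 and 197 ± 7.19 CPM (SD, n = 3 each). The 95% interval of the log2 difference was -0.13 to 0.13.

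**Figure D1:**
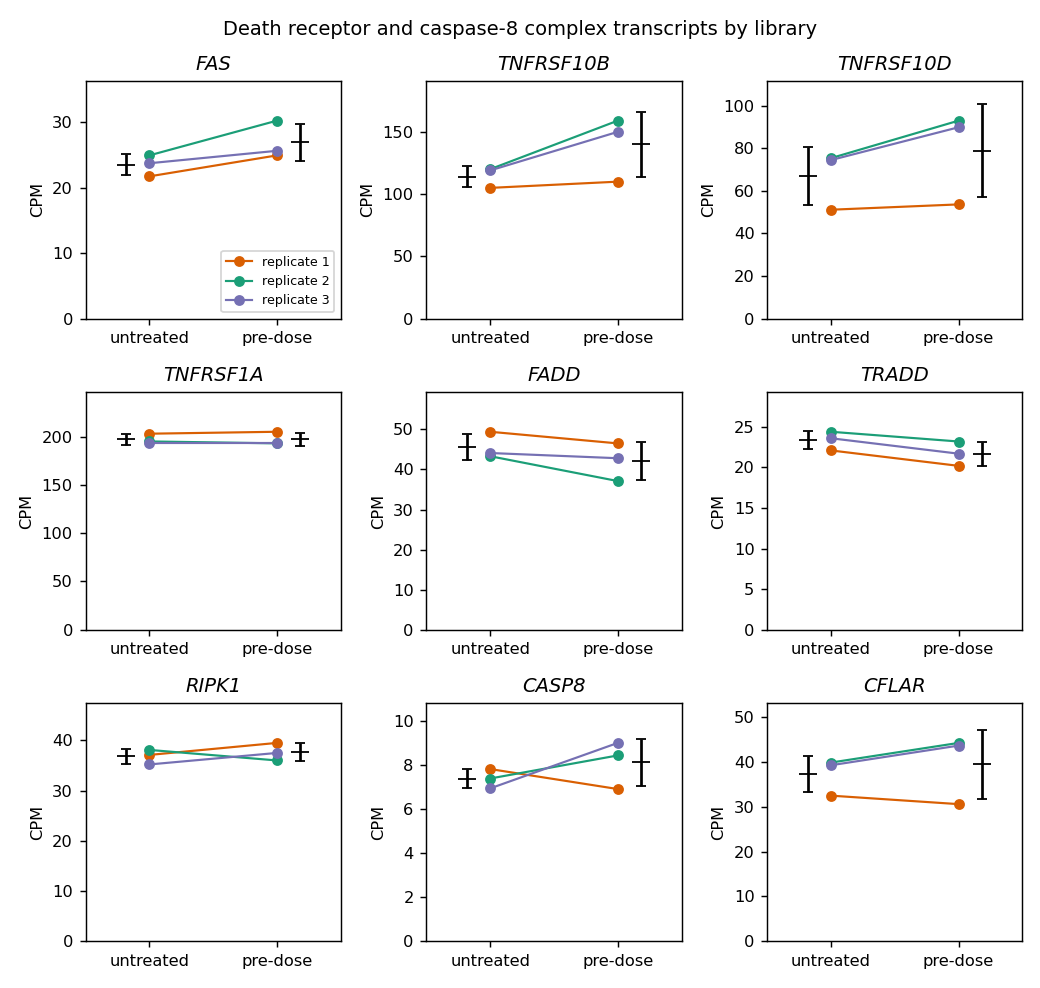
Level of each of the 9 transcripts in CPM (vertical axis, from 0) in untreated and pre-dose libraries, with lines joining libraries of the same replicate number and black bars for the group mean and SD (n = 3). TNFRSF10B and TNFRSF10D sit lowest in untreated replicate 1 and have steeper lines in replicates 2 and 3, and TNFRSF1A lies between 193 and 205 CPM.

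FADD, the adaptor that bridges receptors and caspase-8, lies on chromosome 11 from 70203163 to 70207390. Its level was 49.4, 43.3 and 44.1 CPM in untreated and 46.5, 37.1 and 42.8 CPM in pre-dose replicates. It was lower after the pre-dose in each pair, by amounts of -0.09, -0.22 and -0.05, while the pre-dose replicate 1 library lay above untreated replicates 2 and 3. The difference was -0.12 ± 0.10 (SE), with an interval of -0.35 to 0.11 (adjusted p = 1 in limma). With the replicate number as a block the upper limit of its interval was just under 0 (unadjusted p = 0.0472, adjusted p = 0.465).

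TRADD, the adaptor of TNFRSF1A, lies on chromosome 16 from 67154180 to 67160298 and had 22.1, 24.4 and 23.6 CPM in untreated and 20.2, 23.2 and 21.7 CPM in pre-dose replicates. It too was lower in each pair, by -0.13, -0.07 and -0.12 on the log2 scale. The interval was -0.29 to 0.08, and the authors' deposited table gave an adjusted p of 0.196. RIPK1, the kinase that directs TNF receptor signalling to survival or death, lies on chromosome 6 from 3063991 to 3115187. It had 37.1, 38.1 and 35.2 CPM in untreated and 39.5, 36.0 and 37.5 CPM in pre-dose replicates, and its pairs differed by 0.09, -0.08 and 0.09. The interval of its difference was -0.12 to 0.19.

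CASP8 lies on chromosome 2 from 201233443 to 201287711 and had the lowest CPM of the set. Its level was 7.82, 7.39 and 6.94 CPM in untreated and 6.91, 8.44 and 9.01 CPM in pre-dose replicates. Pre-dose replicates 2 and 3 were above every untreated library, and pre-dose replicate 1 was below every one of them. The means were 7.38 ± 0.443 and 8.12 ± 1.09 CPM (SD, n = 3 each), and the difference was 0.12 ± 0.11 (SE) with an interval of -0.14 to 0.38. The pairs differed by -0.16, 0.17 and 0.33. Without the replicate 1 pair the difference was 0.25 (0.04 to 0.46) with an adjusted p of 0.153 in limma. The authors' deposited table gave 0.31 (0.13 to 0.49) with an adjusted p of 0.0697, a value that is not the plain mean difference over the 6 libraries.

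CFLAR, on chromosome 2 from 201116104 to 201176687, is a neighbour of CASP8. Its level was 32.5, 39.9 and 39.3 CPM in untreated and 30.6, 44.3 and 43.7 CPM in pre-dose replicates. As for TNFRSF10D, both replicate 1 libraries were the lowest, and the pre-dose libraries of replicates 2 and 3 were the highest. The pairs differed by -0.09, 0.15 and 0.15, and the interval of the difference was -0.29 to 0.43. Without the replicate 1 pair it was 0.15 (0.04 to 0.25), with an adjusted p of 0.0955 in limma. The log2 ratio of CFLAR to CASP8 changed by 0.09, -0.04 and -0.22 in the 3 pairs (exact two-sided permutation p = 0.7), and that of FADD to CASP8 by 0.09, -0.42 and -0.42 (p = 0.4 in the same exact test).

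**Figure D2:**
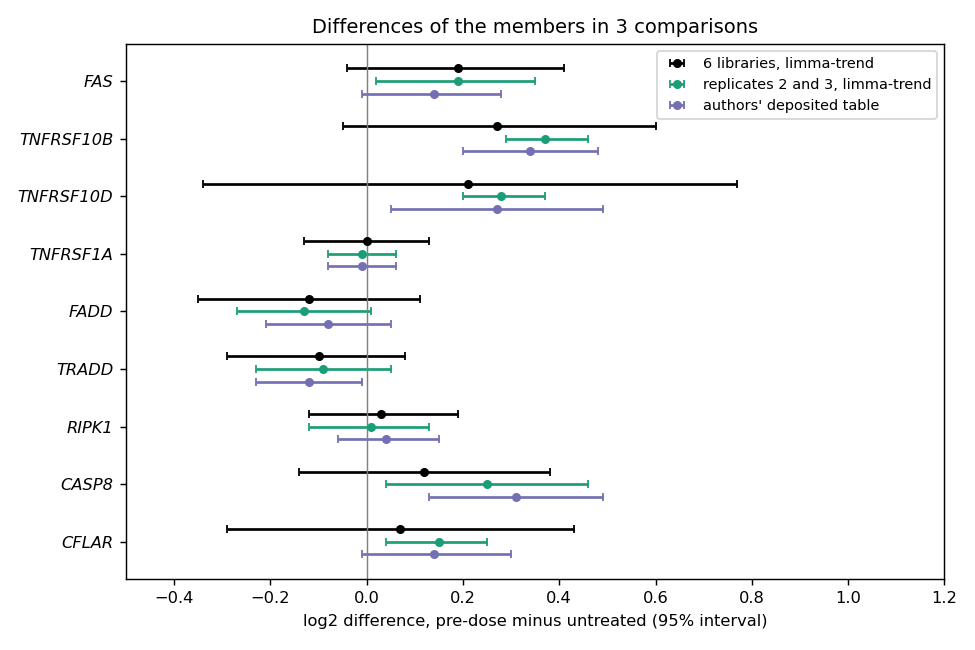
Log2 difference of each transcript, pre-dose minus untreated (horizontal axis), with its 95% interval, from limma-trend on 6 libraries, from limma-trend on replicates 2 and 3, and from the authors' deposited table. All 9 intervals from 6 libraries reach across 0, and those of TNFRSF10B, TNFRSF10D and CASP8 lie above 0 in both other comparisons.

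The 9 genes as a set had a median log2 difference of 0.07 over 6 libraries, against -0.00126 over all genes tested. Their median was 0.014 in the replicate 1 pair, 0.148 in the replicate 2 pair and 0.107 in the replicate 3 pair. Of the 9, 3 were higher in all 3 pairs (FAS, TNFRSF10B and TNFRSF10D), against 15.6% of genes tested, and 2 were lower in all 3 (FADD and TRADD), against 16.3%. At an unadjusted p under 0.05 limma-trend gave 0 of the 9 (2.06% of genes tested), the replicate block 4 (10.6%), replicates 2 and 3 alone 5 (21%), and 4 did so in the authors' deposited table (23.3%). The members were chosen with results of these libraries known, and these counts are a description.

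**Figure D3:**
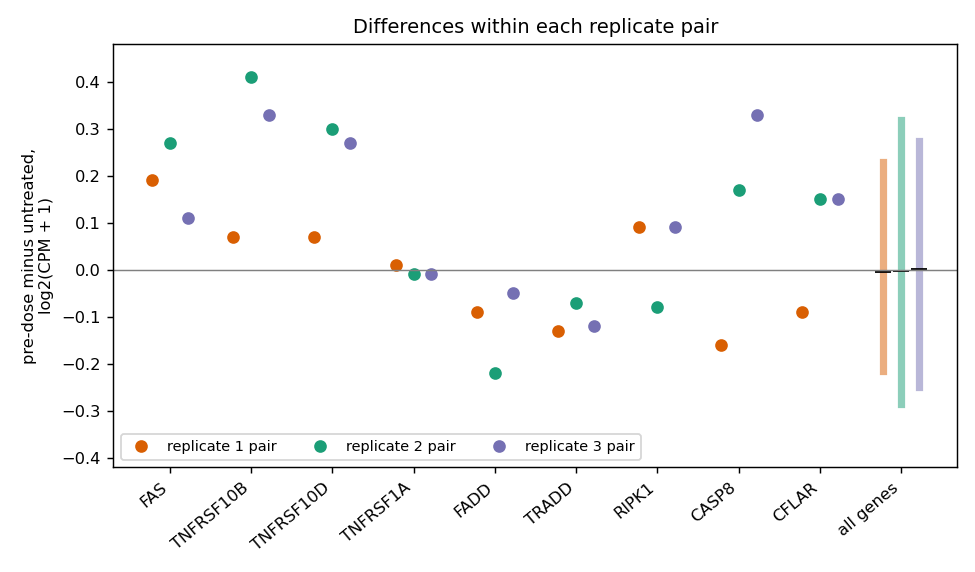
Difference in log2(CPM + 1) within each replicate pair (vertical axis, pre-dose minus untreated) for the 9 transcripts, with the range from the 5th to the 95th percentile of all genes tested as bars at the right and their median as a black line. TNFRSF10B in the replicate 2 and 3 pairs (0.41 and 0.33) and CASP8 in the replicate 3 pair (0.33) lie above the 95th percentile of their pairs (0.319 and 0.273 for replicates 2 and 3).

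Levels were compared between genes as CPM per kb of merged exon length from GENCODE release 29. In untreated libraries TNFRSF1A was highest with 49.3 ± 1.34 CPM per kb (SD, n = 3), followed by FADD with 24.8 ± 1.80, TNFRSF10B with 22.2 ± 1.63 and TNFRSF10D with 18.9 ± 3.88. TRADD (9.11 ± 0.44), RIPK1 (8.70 ± 0.347) and FAS (5.51 ± 0.376) were lower, and CFLAR (1.65 ± 0.181) and CASP8 (1.02 ± 0.0612) had the lowest CPM per kb. The ranges of TNFRSF10B and TNFRSF10D overlapped in untreated libraries, as did those of TRADD and RIPK1, and those of the other neighbours in this order did not. In pre-dose libraries TNFRSF10B (27.1 ± 5.09 CPM per kb) had a higher mean than FADD (22.9 ± 2.58), with overlapping ranges. The order rests on the length used, since the exons merged over all CFLAR transcripts span 22.5 kb. With the median length of the protein-coding transcripts in its place, a choice made after seeing the data, CFLAR had 22.6 CPM per kb in untreated libraries and CASP8 3.88, and TNFRSF1A stayed highest and CASP8 lowest.

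Other genes of the pathway were taken from lists fixed by function. None of 6 death ligands had a row in the table. Of 10 measured members of the TNF receptor family outside the set, 0 passed in limma over 6 libraries, with a median difference of 0.051. EDA2R, a receptor for an ectodysplasin form and a known p53 target, had 7.89, 10.4 and 10.6 CPM in untreated and 10.3, 21.6 and 16.9 CPM in pre-dose replicates. Pre-dose replicates 2 and 3 were above every untreated library, and the ratio of group means was 1.69. EDA2R was called higher in replicates 2 and 3 (adjusted p = 0.00168 in limma) and in the authors' deposited table (adjusted p = 0.0344). These comparisons called 2.89% and 1.61% of all their genes higher. TNFRSF12A, the receptor for TWEAK, was called lower in replicates 2 and 3, from 216 and 211 CPM to 191 and 195 CPM (adjusted p = 0.0315 in limma), a direction in which 3.47% of genes tested were called. TNFRSF19 had 5.71 to 6.36 CPM in untreated and 4.52 to 5.49 CPM in pre-dose libraries. Its groups did not overlap (adjusted p = 1 in limma over 6 libraries), as for 6.55% of genes tested in either direction.

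The 26 ubiquitin and kinase genes of the TNF receptor complex had a median difference of -0.02, and 0 passed in limma over 6 libraries. In replicates 2 and 3 and in the authors' deposited table alike, 2 were called, TRAF3 and TNIP1, both lower. The authors' deposited table called 1.45% of its genes lower, and limma in replicates 2 and 3 called 3.47% of genes tested lower. TRAF3, an adaptor that restrains non-canonical NF-kB signalling, had 66.1, 64.0 and 64.6 CPM in untreated and 59.8, 55.8 and 56.1 CPM in pre-dose replicates. Every pre-dose library was below every untreated one, and the log2 difference was -0.14, -0.20 and -0.20 in the 3 pairs. The authors' deposited table gave TRAF3 an adjusted p of 0.0344, and limma gave 1 over 6 libraries and 0.0198 in replicates 2 and 3. TNIP1, a partner of the deubiquitinating enzyme A20, had 134 to 148 CPM in untreated and 127 to 133 CPM in pre-dose libraries. Like those of TRAF3, its groups did not overlap, against 6.55% of genes tested in either direction. TNIP1 had an adjusted p of 0.0461 in the authors' deposited table.

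Regulators of the death-inducing complex (17 measured, median 0.00697), necroptosis genes (5 measured, median -0.018) and effector caspases with their regulators (18 measured, median -0.0539) had 0 genes past the threshold in limma over 6 libraries and 0 in the authors' deposited table. In replicates 2 and 3, limma called PEA15, BIRC5 and CYCS lower, with adjusted p values of 0.0118, 0.012 and 0.0353. That fit called 3.47% of genes tested lower. PEA15, a death effector domain protein, had 379, 359 and 351 CPM in untreated and 377, 317 and 315 CPM in pre-dose replicates. BIRC5, the gene of survivin and a gene of dividing cells, had 165, 134 and 133 CPM in untreated and 174, 106 and 118 CPM in pre-dose replicates, so its replicate 1 pair went the other way by 0.07 on the log2 scale. CYCS, which encodes cytochrome c, also had opposite signs, with 0.10 in the replicate 1 pair and -0.25 and -0.14 in the others.

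Of the effector list, CASP9 and DFFB had the smallest unadjusted p values over 6 libraries. CASP9, the initiator caspase of the mitochondrial route, had 4.99 to 5.62 CPM in untreated and 5.54 to 6.95 CPM in pre-dose libraries, and was higher in each pair by 0.18, 0.33 and 0.13. DFFB, the nuclease that cuts DNA between nucleosomes, had 3.84 to 4.33 CPM in untreated and 4.35 to 5.40 CPM in pre-dose libraries, with every pre-dose library above every untreated one. Of the 18 genes of this list, 3 were higher in all 3 pairs, against 15.6% of genes tested. DFFB was the 1 gene of the list whose groups did not overlap, against 6.55% of genes tested in either direction. Neither CASP9 nor DFFB passed in limma (adjusted p = 1) or in the authors' deposited table (0.317 and 0.305, adjusted). DAXX, a FAS-binding protein, was lower in each pair by -0.09, -0.15 and -0.13, as were 16.3% of genes tested. DAXX passed in none of these comparisons. PGAM5 and PELI1 led the necroptosis list with unadjusted p values of 0.771 and 0.461 in limma.

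**Figure D4:**
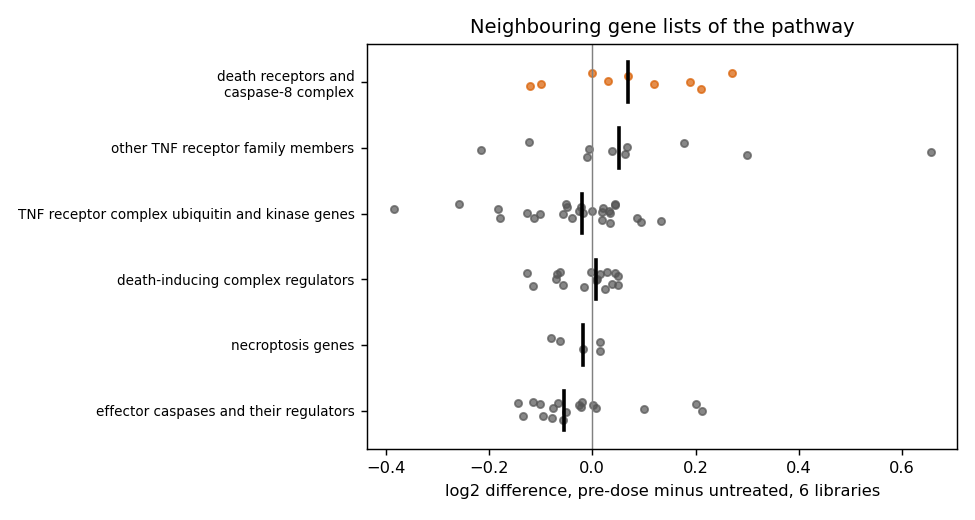
Log2 difference over 6 libraries (horizontal axis, pre-dose minus untreated) of each measured gene in the set and in 5 neighbouring lists, 1 point per gene and a black bar at the list's median, with vertical scatter only to separate points. EDA2R is the point at 0.66 among the other TNF receptor family members, and the list medians lie between -0.0539 and 0.07.

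The 5 genes whose log2(CPM + 1) was most like that of TNFRSF10B over the 6 libraries were SH3BGRL3, EIF4B, RSPH3, TRIM22 and FAM210B, with Pearson correlations of 0.9987 to 0.9955. For FAS they were CNST, RAB40B, LGALSL, AL732372.2 and SLC46A3, with 0.9891 to 0.9797. All of these genes had a lower mean in the replicate 1 libraries and a higher mean after the pre-dose, as their member had. They were picked from 13616 genes over only 6 libraries that share depth and the replicate 1 offset, so the correlations are a description.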

How the data were processed

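The deposited table held 13773 rows with 13696 distinct gene identifiers, and the 77 repeated rows were dropped. The authors deposited log2 values of CPM, which summed to 993377 to 1009238 per library, so a factor beyond the library total entered the scaling. Per the submitters' processing notes, bcl2fastq, DRAGEN, edgeR and limma were used, with hg38. Of versions, counting, strand setting and annotation, the sources used here give nothing. The lowest value of each column was read as 0.5 of a read, which gave the effective totals. The authors also deposited log2 fold changes with limits, p-values and scores (a moderated statistic), per the file headers, and the fold change is printed here as pre-dose minus untreated, the opposite of its deposited sign. With its deposited sign it correlated by -0.688 across genes with the mean difference of the log2 values. It is thus not the plain mean difference over 6 libraries, which for CASP8 was 0.13 on these values against the authors' 0.31. How their model weighed the libraries is not given.

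Genes whose mean over the libraries was 1 CPM or more (13616, all 9 members among them) were tested with limma-trend (limma 3.58.1, R 4.3.3) on log2(CPM + 1), a pseudocount of 1 CPM that understates changes of low genes, with Benjamini-Hochberg adjustment over all genes and a threshold of 0.05. Voom took estimated counts recovered from the log2 values. The fit was tested on simulated data whose spread was taken from replicates 2 and 3. The simulation thus leaves out the replicate 1 offset and does not speak of the fit under it. Within groups, no 2 libraries agreed within sampling noise (chi-square per degree of freedom 2.14 or more). Between replicates 2 and 3 the value was 2.14 in untreated and 4.45 in pre-dose libraries. Comparisons with replicate 1 gave 34.4 to 49.2. The fit on replicates 2 and 3 alone rests on the smaller spread. Replicate numbers were checked from deviations from the group means: same-numbered libraries correlated across genes by 0.66, 0.45 and 0.18, which meets the criterion for pairing (each over 0.1), though the labels state none. The main fit and the exact permutation tests were unpaired, and a fit with the replicate block was an alternative. Untreated replicate 3 and pre-dose replicate 2 correlated by 0.51, and untreated replicate 2 and pre-dose replicate 3 by 0.28. The criterion thus cannot tell the replicate 2 and 3 pairs from swapped ones. Deviations from a group mean sum to 0, so the replicate 1 offset alone can make the deviations of replicates 2 and 3 correlate. The pair differences of replicates 2 and 3 rest on the numbering of the libraries.

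Named genes were all members, CDKN1A and MDM2, list genes called in any comparison or with the 2 smallest p values of their list, and the 5 genes most like TNFRSF10B and FAS. Members, lists and alternatives were chosen with earlier results of these data known. Gene positions came from GENCODE release 29 (GRCh38), in which 99.5% of identifiers were found. Figures used matplotlib 3.10.9.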

Additional observations from a re-analysis of the deposited data

How the results depend on the processing

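Over 6 libraries, 0 members, 0 genes of the pathway lists and 0 of all genes were called in limma-trend (280 of all genes at an unadjusted p under 0.05), and the same held with a pseudocount of 0.5 or 2 CPM, the deposited log2 values, no filter or a mean of 5 CPM, median-of-ratios scaling, voom (278 at an unadjusted p), eBayes without trend or robust, and without any 1 library. The fit with the replicate block also called 0 genes of each kind (1443 at an unadjusted p), so it changed no call. Replicates 2 and 3 alone called 2 members, 7 list genes and 866 of all genes, and voom with library quality weights 1, 1 and 108. TNFRSF10B and TNFRSF10D were the members called in the former and TNFRSF10B in the latter. The median difference of the members, 0.07, was 0.149 in replicates 2 and 3 and ran from 0.0307 to 0.215 with 1 library left out, the highest being without pre-dose replicate 1. With 1 library left out, 3 members took both signs: TNFRSF1A from -0.031 to 0.0211, CFLAR from -0.022 to 0.241 and RIPK1 from -0.00162 to 0.0633, and the cause was not tested. The other 6 kept their direction while their size moved by over 1.5 times: TNFRSF10B from 0.169 (without pre-dose replicate 2) to 0.435, TNFRSF10D from 0.0307 (without untreated replicate 1) to 0.464, FAS from 0.104 (without pre-dose replicate 2) to 0.238, CASP8 from 0.045 (without pre-dose replicate 3) to 0.215, FADD from -0.189 to -0.0297 (without pre-dose replicate 2) and TRADD from -0.15 (without pre-dose replicate 2) to -0.0541, the other end of each range being without pre-dose replicate 1. The order of levels per length, counted from the highest, changed with the median transcript length: FADD went from 2 to 3, TNFRSF10B from 3 to 2, TNFRSF10D from 4 to 5, TRADD from 5 to 7, RIPK1 from 6 to 8, FAS from 7 to 6 and CFLAR from 8 to 4.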
